A study of Mus musculus with 9 samples.

Results

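The nuclear-encoded genes of mitochondrial oxidative phosphorylation were followed in F9, a line of mouse embryonal carcinoma cells with features of the early embryo that turns towards primitive endoderm when given retinoic acid. RNA was measured on 9 Affymetrix arrays, 3 for each of 3 groups. One group received only the ethanol vehicle in DMEM medium. The others received 0.5 µM retinoic acid (RA), a ligand of nuclear receptors, or 0.07 µM trichostatin A (TSA), an inhibitor of histone deacetylases; all cells were harvested at 24 h. Members were chosen by gene symbol alone, as every probe set with 1 symbol that begins with Nduf, Uqcr or Atp5, that is Sdha to Sdhd, Cycs or Cyc1, or that is Cox followed by 4 to 8. The rule gave 101 of the 12422 probe sets tested and 73 genes of the 8251 with 1 symbol. Complex I had 38 probe sets for 29 genes, and 4 more for the complex I assembly factors Ndufaf1 and Ndufaf4. Complexes II, III, IV and V had 4, 9, 23 and 22 probe sets for 4, 8, 15 and 14 genes, and cytochrome c had 1. A further 10 probe sets with several symbols, and 2 for Sdh assembly factors, lay outside the rule. Each deposited value is the ratio of an array to the mean of the 3 vehicle arrays for that probe set, so a value of 1 is the vehicle level, and levels cannot be compared between genes. Whether the 3 arrays of a group stand for separate cultures is not in the labels. The tests therefore gauge differences against the variation among these arrays, part or all of which may be technical.

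Complexes I to IV pass electrons from NADH and succinate to oxygen in the inner mitochondrial membrane and, with the exception of complex II, pump protons as they do so. Complex V, the ATP synthase, makes ATP from the returning protons. Cytochrome c carries electrons from complex III to complex IV. A few subunits of the complexes are encoded by mitochondrial DNA; all members described here are encoded in the nucleus, and many of their promoters are bound by the factors NRF1, GABPA and YY1. Several small subunits of complex IV exist as paired forms: Cox6a1, Cox6b1, Cox7a2 and Cox8a are made in most tissues, Cox6a2, Cox7a1 and Cox8b mainly in heart and skeletal muscle, and Cox6b2 and Cox8c mainly in testis.

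No member passed the test against vehicle under either agent. Between the agents 4 of the 101 probe sets passed, a share near the 3.91% of all probe sets. Of these, 3 were for Cox6a2 and Cox6b2, small subunits of complex IV that are known as tissue forms. None of the 4 passed when any 1 RA or TSA array was left out. With limma on log2(ratio + 0.05) over all 9 arrays and Benjamini-Hochberg adjustment over the 12422 probe sets, no member passed an adjusted p of 0.05 in RA against vehicle, where 1.36% of all probe sets passed. None passed in TSA against vehicle either, against 3.48% of all. In RA against TSA, 4 of the 101 members passed, a share near the 3.91% of all probe sets. Cox6a2 was higher in RA (1.7% of all were higher), and Ndufa3 and 2 probe sets of Cox6b2 were lower (2.21% of all were lower). At an unadjusted p under 0.05 the members numbered 14 in RA against vehicle (13.9%, with 12.7% of all probe sets), 10 in TSA against vehicle (19.6% of all) and 13 in RA against TSA (17.1% of all). These shares lie near or below the background. The 3 RA arrays lay wholly outside the 3 vehicle arrays for 16 members, 14 lower and 2 higher, where 17% of all probe sets did, 11% lower and 5.93% higher. The TSA arrays did so for 27 members, 20 lower and 7 higher, where 26.3% of all did, 17.1% lower and 9.26% higher. RA against vehicle and TSA against vehicle share the vehicle arrays. All log2 changes below are on that scale, which understates the changes of low ratios.

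Most members lay slightly below the vehicle level in RA. The median log2 change in RA against vehicle was -0.25 over the 101 members, a fold of 0.839, and -0.12 over all probe sets. 87 of 101 members were below 0 (86.1%; 62.3% of all probe sets), and 78 were below the median of all probe sets. In TSA the median was -0.21 against -0.17 over all probe sets, 75 members were below 0 (74.3%; 63.9% of all), and 55 were below the median of all probe sets. Relative to the median of all probe sets the members thus stood at -0.13 in RA and -0.042 in TSA. The members were read on the same arrays and are not independent, so counts of members are not counts of replicates. Between arrays of a group the members' median had an SD of 0.149 on the log2 scale. With each array centred on its median, which moved the median of all probe sets to 0.035 in RA and 0.029 in TSA, the members' median was -0.0963 in RA, with 75 of 101 below 0, and -0.0124 in TSA, with 52 of 101 below 0.

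The vehicle arrays disagreed about these genes more than the treated arrays did. The members' median ratio was 1.16, 1.00 and 0.834 in vehicle 1, 2 and 3, where all probe sets had medians of 1.02, 0.984 and 0.975. It was 0.850, 0.718 and 0.813 in RA and 0.852, 0.842 and 0.884 in TSA. Vehicle 1 was the highest vehicle array for 64 of 101 members (63.4%; 41.1% of all probe sets) and vehicle 3 the lowest for 65 (64.4%; 42.3% of all). The median SD of the members on the log2 scale was 0.359 in vehicle, 0.236 in RA and 0.138 in TSA, below that of all probe sets (0.413, 0.311 and 0.260). The control probe sets for 18S ribosomal RNA had median ratios of 0.538, 0.0730 and 2.40 in vehicle 1, 2 and 3, up to 0.961 in RA 3 and at most 0.0723 in the 5 other arrays; the part of this in the members' values was not tested. Without RA 3 and vehicle 3, the arrays with the highest 18S signal, the members' median in RA was -0.39. It was -0.39 without vehicle 3 alone and -0.17 without vehicle 1, where all probe sets had -0.14.

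**Figure D1:**
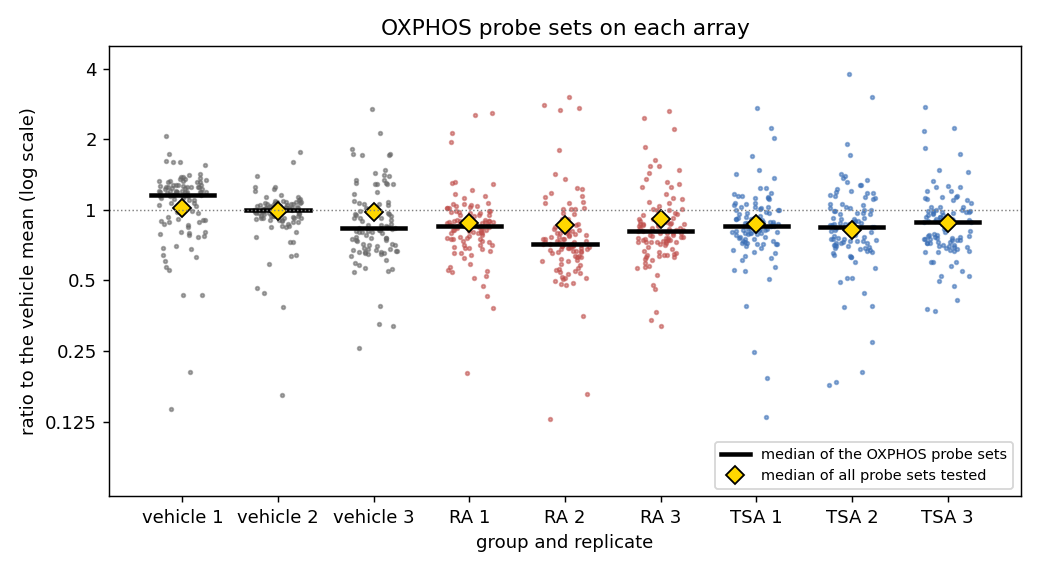
Deposited ratio to the vehicle mean (log axis) of the 101 member probe sets, 1 point each, on the 3 vehicle (grey), 3 RA (red) and 3 TSA (blue) arrays; black bars are the members' median and diamonds the median of all 12422 probe sets. The members' median is above that of all probe sets in vehicle 1 (1.16 and 1.02), below it in vehicle 3 (0.834 and 0.975), and lowest in RA 2 (0.718).

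Markers of the cells were read on the same arrays to check the labels. Of 12 probe sets for embryonal carcinoma markers, 4 fell in RA (Tdgf1, Utf1, Zfp42 and Tcl1) and 1, Alpl, rose; 2 fell in TSA (Tdgf1 and Utf1). Their summed ratio ran from 11.2 to 12.5 in vehicle, from 7.75 to 9.23 in RA and from 7.57 to 8.70 in TSA. Of 24 probe sets for endoderm markers, 3 rose in RA (Sox7, Plat and 1 of 3 for Gata6) and 2 in TSA (Plat and Lama1). The Gata6 probe sets that did not pass had log2 changes of 1.65 and 0.38 in RA. In RA 8 of the 24 were below 0, with a median of 0.20. In TSA 16 were below 0, with a median of -0.16. The log2 change of Plat was 2.56 in RA and 3.60 in TSA. Of 12 probe sets for fibroblast markers, 2 rose in TSA (Thy1 and Col1a1), and the summed ratio ran from 8.80 to 18.1 in vehicle, from 12.4 to 13.4 in RA and from 30.5 to 46.97 in TSA. The rise of that sum came mostly from those 2 probe sets, with ratios of 13.95, 26.8 and 22.1 in TSA for Col1a1 and 6.23, 8.26 and 6.68 for Thy1; the median log2 change of the list in TSA was 0.13 and 6 of the 12 were below 0. The second Col1a1 probe set had 0.59 and did not pass. The part of these markers in the members' values was not tested. In bulk RNA, fewer cells of a type and less RNA per cell cannot be told apart.

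Complex I takes electrons from NADH. Its core holds the flavoprotein Ndufv1, which binds NADH, and the iron-sulfur protein Ndufs1, and most other members are accessory subunits. The median log2 change of its 38 probe sets was -0.25 in RA and -0.26 in TSA. Ndufv1 had ratios of 0.992, 1.09 and 0.921 in vehicle, 0.890, 0.814 and 0.793 in RA and 1.06, 1.12 and 1.20 in TSA. All 3 RA arrays were below all vehicle arrays, whereas 2 of the 3 TSA arrays were above them. For Ndufv1 the value in RA was -0.25 (SE 0.167, limma adjusted p 0.597) and in TSA 0.17 (adjusted p 0.632). Ndufs1 had 1.14, 1.03 and 0.826 in vehicle, 0.843, 0.753 and 0.863 in RA and 0.904, 0.868 and 0.692 in TSA. Its log2 change was -0.26 in RA (95% interval -0.71 to 0.19) and -0.27 in TSA (-0.72 to 0.19), so a fall of 1 on the log2 scale was outside both intervals.

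The lowest complex I value in RA was in a probe set of the accessory subunit Ndufb6 with the suffix r, which marks fewer or less specific probes. This probe set had 0.892, 1.02 and 1.09 in vehicle and 0.572, 0.682 and 0.340 in RA, without overlap, and a log2 change of -0.90 (SE 0.331, limma adjusted p 0.2999). A second Ndufb6 probe set had 1.27, 1.07 and 0.663 in vehicle, 0.884, 0.633 and 0.732 in RA and 1.48, 1.71 and 1.48 in TSA. There the RA arrays overlapped vehicle, while the TSA arrays lay above all others, and its log2 difference between RA and TSA was -1.01 (SE 0.258, adjusted p 0.0737). Ndufa5, another accessory subunit, had 1.32, 0.902 and 0.781 in vehicle and 0.625, 0.513 and 0.682 in RA, a log2 change of -0.65 (adjusted p 0.277). The highest complex I value in RA was a probe set of Ndufb2 that also carries the suffix r. It had 0.846, 1.59 and 0.561 in vehicle and 1.30, 2.79 and 1.04 in RA, where the arrays overlapped. Its log2 change was 0.74 with an SE of 0.511, and the other 3 Ndufb2 probe sets had -0.46, -0.38 and -0.13. In all, 7 of the 38 complex I probe sets had RA arrays wholly below vehicle and none wholly above. Of all probe sets, 11% were wholly below and 5.93% wholly above.

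In TSA the complex I members spread both ways. Ndufa3, a small accessory subunit, was the highest, with 1.25, 0.996 and 0.754 in vehicle, 0.915, 0.815 and 0.849 in RA and 1.69, 1.91 and 1.73 in TSA. Every TSA array was above every other array, and the log2 change against vehicle was 0.82 (SE 0.212, limma adjusted p 0.0761); with each array centred it passed (1.02, adjusted p 0.0335). Its log2 difference between RA and TSA, -1.005, passed (SE 0.212, adjusted p 0.0374). The other Ndufa3 probe set had 1.04, 1.01 and 0.944 in vehicle and 0.885, 0.970 and 1.13 in TSA, a log2 change of -0.011 (95% interval -0.57 to 0.55). Both carry the suffix f, which Affymetrix gave to sets whose probes match several members of a sequence family, so their signal may come from more than 1 transcript. The lowest value in TSA was a probe set of Ndufa1 with 1.16, 1.26 and 0.583 in vehicle, 0.970, 0.163 and 1.64 in RA and 0.247, 0.185 and 0.667 in TSA; its log2 change of -1.44 had an SE of 0.752, and its arrays overlapped. The other Ndufa1 probe set had -0.33. TSA arrays were wholly below vehicle for 11 of the 38 complex I probe sets and wholly above for 3. Of all probe sets, 17.1% were wholly below and 9.26% wholly above.

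The assembly factors of complex I help build the enzyme and are not part of it. Ndufaf4 had 1.28, 1.07 and 0.650 in vehicle, 0.554, 0.509 and 0.573 in RA and 0.913, 0.672 and 1.11 in TSA. All RA arrays were below all other arrays; the log2 change in RA was -0.77 (SE 0.281, limma adjusted p 0.295) and in TSA -0.12. The second Ndufaf4 probe set had 0.142, 0.162 and 2.70 in vehicle, 0.201, 0.128 and 0.478 in RA and 0.130, 0.179 and 0.410 in TSA. Its vehicle 3 value stood far above the other 8, and its log2 change of -0.85 in TSA rested on that array, since the value was 0.41 without it. The value of -0.75 in RA rested on it too and was 0.51 without it. One of the Ndufaf1 probe sets had little spread within groups, with 0.966, 1.03 and 1.01 in vehicle, 0.767, 0.676 and 0.800 in RA and 0.796, 0.732 and 0.745 in TSA. Both treated groups were wholly below vehicle, with log2 changes of -0.40 (adjusted p 0.353) and -0.38 (adjusted p 0.247). The other Ndufaf1 probe set had -0.50 and -0.71 with an SE of 0.619.

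Complex II, succinate dehydrogenase, joins the citric acid cycle to the chain. Its 4 genes spread around the vehicle level, and their median log2 change was -0.16 with RA and 0.075 with TSA. Sdhd, a membrane anchor, had 1.10, 1.04 and 0.863 in vehicle, 0.904, 0.538 and 0.853 in RA and 0.609, 0.512 and 0.600 in TSA. The TSA arrays were wholly below vehicle, with a log2 change of -0.75 (SE 0.231, limma adjusted p 0.126). Sdhc, the other membrane anchor, had 1.10, 1.13 and 0.766 in vehicle and 1.24, 1.27 and 1.25 in TSA, wholly above vehicle, with a log2 change of 0.33 (SE 0.201, adjusted p 0.411). The partner anchors thus lay on opposite sides of vehicle in TSA, although neither passed. Sdha, the flavoprotein that oxidises succinate, stood at 0.22 with RA and 0.13 with TSA, and Sdhb, the iron-sulfur subunit, -0.21 and 0.022.

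Complex III passes electrons from ubiquinol to cytochrome c, and its subunits had the lowest median of the 5 complexes in RA. The median log2 change of its 9 probe sets was -0.44 in RA and -0.22 in TSA, and 8 of the 9 were below 0 in RA. The lowest was Uqcrh, the hinge protein that helps cytochrome c bind. Uqcrh had 1.19, 1.00 and 0.807 in vehicle, 0.430, 0.542 and 0.616 in RA and 0.914, 0.871 and 0.913 in TSA. Its RA arrays lay wholly below those of the other groups, and the TSA arrays fell within the vehicle range. The log2 change of Uqcrh in RA was -0.86 (SE 0.210, limma adjusted p 0.114), in TSA -0.13, and between RA and TSA -0.73 (adjusted p 0.110). Uqcrc2, a core protein, had 1.12, 0.866 and 1.01 in vehicle, 0.654, 0.532 and 0.758 in RA and 0.725, 0.733 and 0.702 in TSA. Both treated groups were wholly below vehicle, with log2 changes of -0.60 (adjusted p 0.233) and -0.44 (adjusted p 0.256). Its partner core protein Uqcrc1 had -0.19 and -0.11. Uqcr11, a small subunit, had 1.31, 1.02 and 0.674 in vehicle, 0.759, 0.487 and 0.571 in RA and 0.873, 1.06 and 1.07 in TSA, with log2 changes of -0.65 and 0.041. Cyc1, the cytochrome c1 subunit, had probe sets at -0.30 and 0.20 in RA, on opposite sides of 0. Of the 9 complex III probe sets, 3 had RA arrays and 4 had TSA arrays wholly below vehicle, and none lay wholly above.

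Cycs, cytochrome c itself, varied more within groups than between them. It had 1.55, 0.841 and 0.612 in vehicle, 1.03, 0.874 and 0.593 in RA and 1.24, 1.42 and 0.724 in TSA. The log2 change was -0.19 in RA (95% interval -1.07 to 0.70) and 0.21 in TSA (-0.67 to 1.10), and both intervals include 0.

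The ATP synthase members lay close together. The median log2 change of the 22 complex V probe sets was -0.28 in RA and -0.24 in TSA, and single values ran from -0.60 to 0.23 in RA and from -0.48 to 0.27 in TSA. Atp5a1, the alpha subunit of the catalytic head, had 1.16, 1.04 and 0.799 in vehicle, 0.948, 0.701 and 0.833 in RA and 0.784, 0.774 and 0.752 in TSA. Its TSA arrays agreed closely and were wholly below vehicle, with a log2 change of -0.34 (SE 0.202, limma adjusted p 0.399). Atp5c1, the rotor subunit gamma, was also wholly below vehicle in TSA in 1 of its 2 probe sets, at -0.33 (adjusted p 0.426). Atp5l, a membrane subunit, had 1.11, 1.05 and 0.836 in vehicle, 0.748, 0.513 and 0.730 in RA and 0.938, 0.990 and 0.981 in TSA. Its RA arrays were wholly below the other groups, with a log2 change of -0.57 (SE 0.207, adjusted p 0.295), and its second probe set had -0.15. Atp5j2, another membrane subunit, was the highest in RA at 0.23. The c-ring genes Atp5g1 and Atp5g2, which encode the same mature protein, had log2 changes from -0.60 to -0.074 in RA over 4 probe sets, the lowest in Atp5g2. Of the 22 complex V probe sets, 1 had RA arrays and 3 had TSA arrays wholly below vehicle, and none lay wholly above. Among all probe sets, 11% were wholly below in RA and 17.1% in TSA.

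**Figure D2:**
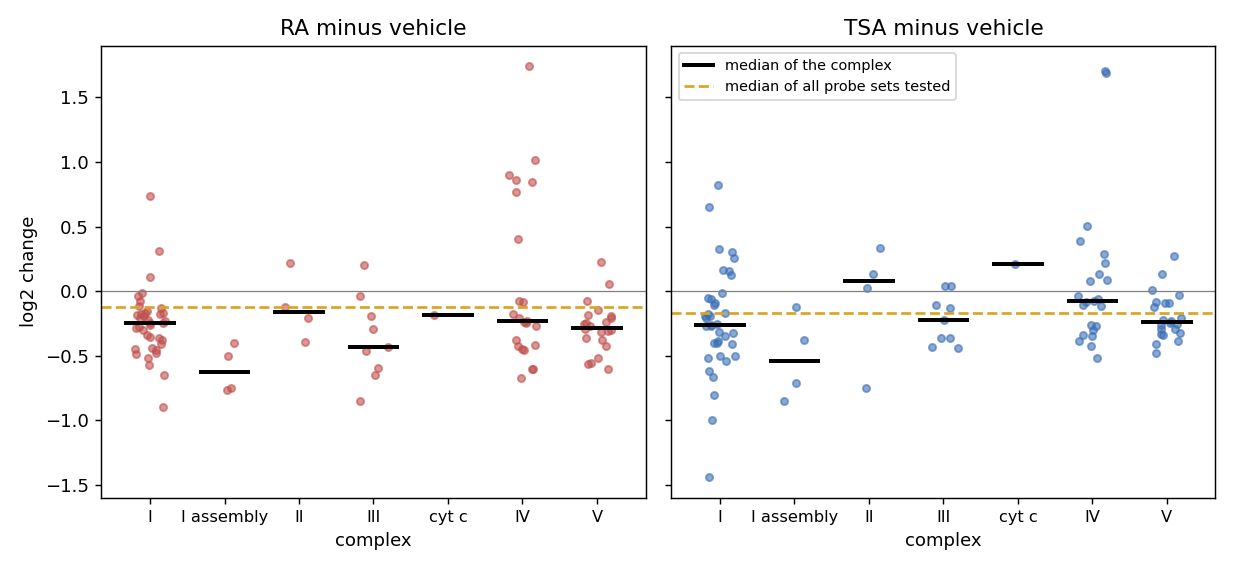
Log2 change against vehicle of each member probe set, 1 point each, in RA (left) and TSA (right), by complex; black bars are the median of each complex and dashed lines the median of all probe sets (-0.12 in RA and -0.17 in TSA). Of the 5 complexes, III has the lowest median in RA (-0.44), and complex IV holds the highest single values in both panels (1.74 and 1.70).

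Complex IV, cytochrome c oxidase, held the members with the highest log2 changes under both agents. The median log2 change of its 23 probe sets was -0.23 in RA and -0.073 in TSA. Of the 23, 1 had RA arrays wholly below vehicle and 2 wholly above. In TSA 0 lay wholly below and 3 wholly above. Among all probe sets the shares below and above were 11% and 5.93% in RA and 17.1% and 9.26% in TSA. Single members departed from the median of the complex in both directions. In RA they included tissue forms, such as Cox7a1 at 1.74 (SE 0.566) and a Cox6b2 probe set at -0.67 (SE 0.471). They also included widely made subunits, such as Cox8a at 0.90 (SE 0.948) and a Cox6c probe set at 0.84 (SE 0.544). None of these passed in RA, and the other Cox6c probe sets had -0.38 and 0.86. Complex IV also varied more within vehicle, with a median log2 SD of 0.466 against 0.359 over all members. The promoters of Cox6b2, Cox6b1, Cox7a1, Cox7a2 and Cox6a1, with those of Ndufa3 and Uqcrh, are shown because the results below turn on these genes or on their partner forms. They are RefSeq sequences of the GRCm38.p6 build, the 250 bases before the transcription start, written 5′ to 3′ on the gene's strand. Capitals mark the letters of 3 searched motifs on either strand: the palindromic motif of NRF1, CCGGAAG for the ETS core that GABPA binds, and GGGCGG for the GC box of SP1. The windows are chr7:4753095-4753344 (minus strand) for Cox6b2, chr7:30626115-30626364 (minus) for Cox6b1, chr7:30183921-30184170 (plus) for Cox7a1, chr9:79759854-79760103 (minus) for Cox7a2, chr5:115348959-115349208 (minus) for Cox6a1, chr7:3617123-3617372 (plus) for Ndufa3 and chr4:116075071-116075320 (minus) for Uqcrh.
Cox6b2: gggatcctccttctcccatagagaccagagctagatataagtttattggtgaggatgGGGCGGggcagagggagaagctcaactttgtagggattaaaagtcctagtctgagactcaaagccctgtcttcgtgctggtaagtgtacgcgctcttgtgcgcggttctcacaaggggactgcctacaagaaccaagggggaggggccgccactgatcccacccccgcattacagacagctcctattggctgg
Cox6b1: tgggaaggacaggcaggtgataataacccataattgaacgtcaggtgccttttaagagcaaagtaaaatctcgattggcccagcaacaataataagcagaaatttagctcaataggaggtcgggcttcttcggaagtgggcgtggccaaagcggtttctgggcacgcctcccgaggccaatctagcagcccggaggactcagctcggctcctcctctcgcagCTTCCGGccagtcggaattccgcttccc
Cox7a1: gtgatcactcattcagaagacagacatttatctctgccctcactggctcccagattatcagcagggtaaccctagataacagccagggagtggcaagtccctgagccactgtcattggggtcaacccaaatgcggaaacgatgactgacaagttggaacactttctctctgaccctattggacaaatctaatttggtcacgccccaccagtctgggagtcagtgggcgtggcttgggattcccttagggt
Cox7a2: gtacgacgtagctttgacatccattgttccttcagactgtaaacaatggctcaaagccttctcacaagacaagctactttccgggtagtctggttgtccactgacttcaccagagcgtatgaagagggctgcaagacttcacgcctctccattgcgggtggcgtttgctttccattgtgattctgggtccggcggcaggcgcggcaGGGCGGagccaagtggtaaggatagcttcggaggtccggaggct
Cox6a1: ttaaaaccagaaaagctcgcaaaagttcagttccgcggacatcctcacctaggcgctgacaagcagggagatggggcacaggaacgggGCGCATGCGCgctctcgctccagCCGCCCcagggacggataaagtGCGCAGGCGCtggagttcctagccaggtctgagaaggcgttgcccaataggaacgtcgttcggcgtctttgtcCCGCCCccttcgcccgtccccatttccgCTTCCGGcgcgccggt
Ndufa3: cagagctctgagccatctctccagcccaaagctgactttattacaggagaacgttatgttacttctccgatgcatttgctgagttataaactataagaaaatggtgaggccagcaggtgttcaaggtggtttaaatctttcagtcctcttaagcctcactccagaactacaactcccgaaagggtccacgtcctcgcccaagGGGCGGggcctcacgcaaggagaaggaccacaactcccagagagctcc
Uqcrh: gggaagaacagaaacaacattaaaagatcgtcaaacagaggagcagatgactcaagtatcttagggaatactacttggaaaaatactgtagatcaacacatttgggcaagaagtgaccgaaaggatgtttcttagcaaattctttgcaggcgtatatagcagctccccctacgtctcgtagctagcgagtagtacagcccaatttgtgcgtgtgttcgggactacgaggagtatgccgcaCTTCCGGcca

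The promoters differ in their letters. Over 300 bases, from 250 before the start to 50 after it, Cox6a1 had 32 CpG pairs, Cox7a2 20, Cox6b1 17, Uqcrh 15, Ndufa3 11, Cox6b2 10 and Cox7a1 7. Cox6a1 held the NRF1 letters at 2 places, the ETS core and the GC box; Cox6b1 and Uqcrh held the ETS core; Cox6b2, Cox7a2 and Ndufa3 held the GC box. Cox7a1 held none of the 3, nor the YY1 letters AANATGGC, which Ndufa3 held after its start. Of the 73 member genes, 59 had a promoter entry. The NRF1 letters were in 12 of the 59 (20.3%; 9.97% of 6572 genes on the array), the ETS core in 16 (27.1%; 17.1%), the YY1 letters in 13 (22.0%; 9.07%) and the GC box in 29 (49.2%; 63.1%). At least 1 of the NRF1, ETS and YY1 letters was in 37 of 59 (62.7%; 30.6%), with 10 of 12 in complex V and 4 of 11 in complex IV. A match of letters is a description of the sequence, and binding was not measured here.

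Cox6a2, the form of subunit VIa known from heart and skeletal muscle, was the 1 member that passed as higher in RA than in TSA. It had 0.783, 0.922 and 1.29 in vehicle, 2.53, 1.80 and 1.85 in RA and 0.716, 0.766 and 0.966 in TSA. Each RA array was above each array of the other groups, and TSA overlapped vehicle. The mean ratio was 2.06 ± 0.406 (SD, n = 3) in RA and 0.816 ± 0.132 (SD, n = 3) in TSA. The log2 difference between RA and TSA was 1.28 (SE 0.247, limma adjusted p 0.0268), while the change in RA against vehicle, 1.02, did not pass (adjusted p 0.111). Cox6a1, the widespread form with the NRF1 letters in its promoter, had 1.19, 0.990 and 0.815 in vehicle, 0.964, 0.706 and 0.965 in RA and 1.14, 1.32 and 1.20 in TSA. Its log2 difference between RA and TSA was -0.46 (adjusted p 0.318), opposite in sign to that of Cox6a2; the difference between the forms was not tested.

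Cox6b2, the form of subunit VIb known from testis, was the member with the largest difference in the other direction. Its probe set with the suffix i had 1.60, 1.08 and 0.320 in vehicle, 0.471, 0.515 and 0.528 in RA and 2.72, 3.02 and 2.74 in TSA. Every TSA array was above every other array, and the RA arrays lay within the wide range of vehicle. The mean ratio was 0.505 ± 0.0297 (SD, n = 3) in RA and 2.83 ± 0.169 (SD, n = 3) in TSA, a log2 difference of -2.38 (SE 0.471, limma adjusted p 0.0288). In TSA against vehicle the value was 1.70 (adjusted p 0.0935). It passed without vehicle 1 (2.15, adjusted p 0.0495) and without vehicle 3 (1.07, adjusted p 0.0415). In RA against vehicle the value was -0.67 (adjusted p 0.619), and it passed without vehicle 3 (-1.30, adjusted p 0.0359). The probe set with the suffix f had 1.20, 1.09 and 0.714 in vehicle, 0.551, 0.546 and 0.818 in RA and 1.41, 1.37 and 1.45 in TSA, a log2 difference between RA and TSA of -1.11 (SE 0.247, adjusted p 0.0469). Both placed TSA highest, at different sizes. The third Cox6b2 probe set, with the suffix r, had 2.07, 0.383 and 0.544 in vehicle, 0.711, 0.633 and 0.366 in RA and 1.01, 0.957 and 0.379 in TSA, a difference of -0.36 (adjusted p 0.833). The suffixes i and r mark sets with fewer or less specific probes, so a share of the signal from related transcripts cannot be told apart here. Cox6b1, the widespread form, was read only from a probe set that also carries the suffix r. It had 0.682, 0.974 and 1.34 in vehicle, 0.639, 0.664 and 1.16 in RA and 0.747, 0.514 and 0.907 in TSA. Its difference between RA and TSA was 0.16 (95% interval -0.61 to 0.93).

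Cox7a1, the form of subunit VIIa known from heart and skeletal muscle, had the highest log2 change of any member in RA over all 9 arrays, and in TSA it came just after Cox6b2. It had 1.73, 1.02 and 0.258 in vehicle, 2.60, 3.02 and 2.63 in RA and 2.24, 3.78 and 2.17 in TSA. All 6 treated arrays were above all vehicle arrays. The log2 change was 1.74 in RA (SE 0.566, limma adjusted p 0.233) and 1.69 in TSA (adjusted p 0.152); neither passed, and 1 vehicle array was at 0.258 and another at 1.73. Without vehicle 3, the array at 0.258, the log2 change was 1.02 in RA, below those of Cox8a, 1 probe set each of Cox6c and Cox5a, and Cox6a2 (1.32, 1.30, 1.24 and 1.21), and 0.97 in TSA. Cox7a1 was ahead of Cox6b2 in TSA without vehicle 1, TSA 1 or TSA 3. The difference between RA and TSA was 0.054, with a 95% interval from -1.24 to 1.35 that leaves room for 2 times either way. Cox7a2, the widespread form, had 1.25, 0.992 and 0.757 in vehicle, 0.666, 0.604 and 0.915 in RA and 0.994, 0.973 and 0.898 in TSA, with log2 changes of -0.43 and -0.038. Cox7a2l, a related protein that takes part in joining complexes III and IV, had -0.25 and 0.088.

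Other paired forms of complex IV had no probe set that passed in any comparison. Cox8b, the muscle form of subunit VIII, had probe sets at -0.60 and -0.24 in RA and -0.35 and -0.39 in TSA. Cox8c, the testis form, had -0.075 and 0.41 in RA and -0.073 and -0.11 in TSA. Cox8a, the widespread form, had 0.204, 1.39 and 1.40 in vehicle, 1.31, 1.07 and 2.22 in RA and 2.02, 0.203 and 2.23 in TSA; its low vehicle 1 and TSA 2 arrays gave an SE of 0.948, and no order of the groups can be read from it. Cox4i1, the widespread form of subunit IV, had probe sets at -0.46 and -0.21 in RA. The first of these had RA arrays wholly below vehicle, at 0.695, 0.765 and 0.658 against 1.25, 0.901 and 0.852 (adjusted p 0.376).

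Because Cox6a2 and Cox7a1 are known from muscle, 15 probe sets for markers of striated muscle and brown fat were read beside them. None passed in RA against vehicle, and 1, a probe set of Ucp1, the uncoupling protein of brown fat, was higher in TSA. In RA against TSA, 2 were lower in RA (Myl2 and the same Ucp1 probe set) and none higher. However, only 6 of the 15 were below 0 in that comparison, with a median log2 difference of 0.13. In TSA against vehicle 9 were below 0, with a median of -0.26. The second Ucp1 probe set had 0.14 in TSA against vehicle and 0.0019 in RA against TSA. The summed ratio of the 15 ran from 12.1 to 19.8 in vehicle, from 12.6 to 15.9 in RA and from 14.4 to 22.3 in TSA. Since ratios carry no level, absence of a marker cannot be read from them, and the part of other cell types in the isoform values was not tested.

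**Figure D3:**
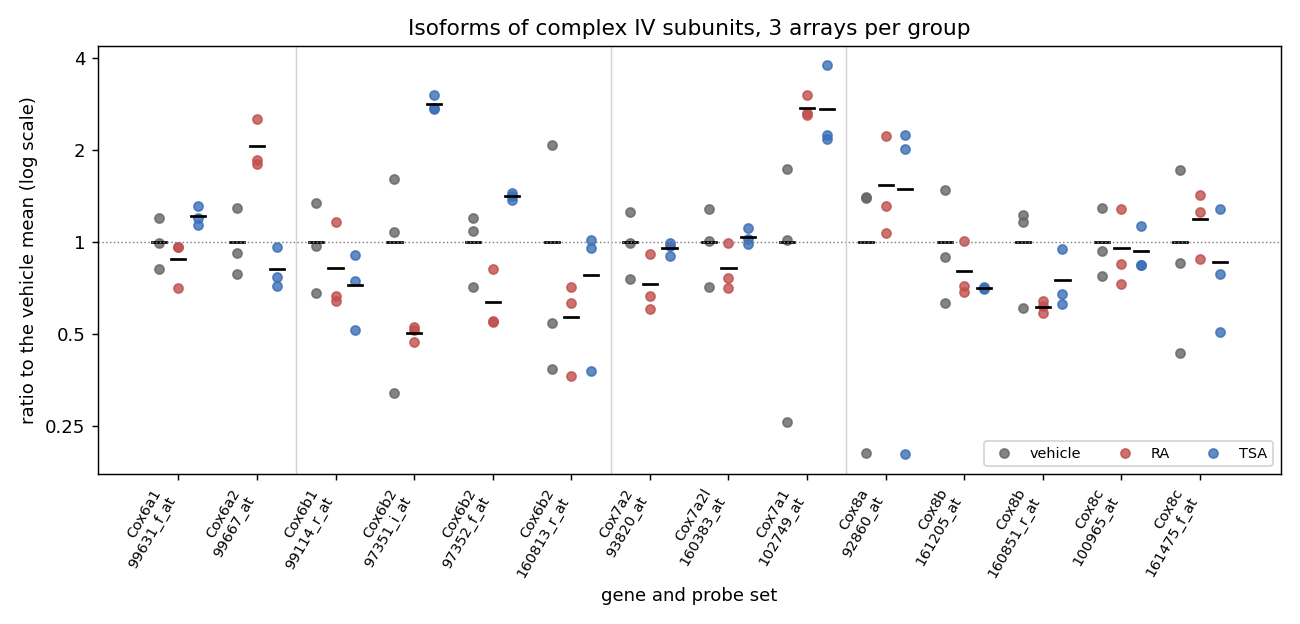
Deposited ratio to the vehicle mean (log axis) for probe sets of the paired forms of complex IV subunits; points are the 3 vehicle (grey), 3 RA (red) and 3 TSA (blue) arrays and short bars the mean of each group. The RA points are highest for Cox6a2, the TSA points are highest for 2 Cox6b2 probe sets, and all treated points exceed vehicle for Cox7a1.

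RA and TSA were also compared directly over all members, since that contrast does not use the vehicle arrays for its values. The median log2 difference, RA minus TSA, was -0.026 against 0.046 over all probe sets, and 54 of 101 members were below 0 (45.8% of all probe sets). Arrays of the 2 treatments did not overlap for 28 members, 8 higher and 20 lower in RA, where 27.3% of all probe sets did not overlap, 13.8% higher and 13.5% lower. Among the 20 were Ndufb10 and Ndufb9 of complex I. Ndufb10 had 0.856, 0.669 and 0.642 in RA and 1.14, 1.34 and 1.25 in TSA, a difference of -0.75 (SE 0.193, limma adjusted p 0.0763). Ndufb9 had 0.760, 0.688 and 0.626 in RA and 1.11, 1.20 and 1.14 in TSA, a difference of -0.70 (SE 0.264, adjusted p 0.224). The second Ndufb10 probe set went the other way, at 0.48. The 95% interval lay within a change of 2 times either way for 63 members in RA against TSA (62.4%, with 43.5% of all probe sets). It did so for 64 in RA against vehicle (63.4%, with 46.5% of all) and for 68 in TSA against vehicle (67.3%, with 41.0% of all). A change of that size in these members was outside the interval. For the other members the interval reached changes of 2 times or more.

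The 4 calls in RA against TSA depended on having all 3 arrays of each treatment. Without any 1 of RA 1, RA 2, RA 3, TSA 1, TSA 2 or TSA 3, no member passed, although the differences stayed between 1.13 and 1.40 for Cox6a2, between -2.41 and -2.33 and between -1.29 and -1.02 for the 2 Cox6b2 probe sets, and between -1.05 and -0.95 for Ndufa3. Without vehicle 2, which enters through the shared spread, 1 passed. With the arrays quantile-normalised none passed, and with the probe sets of a gene averaged only Cox6a2 did.

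**Figure D4:**
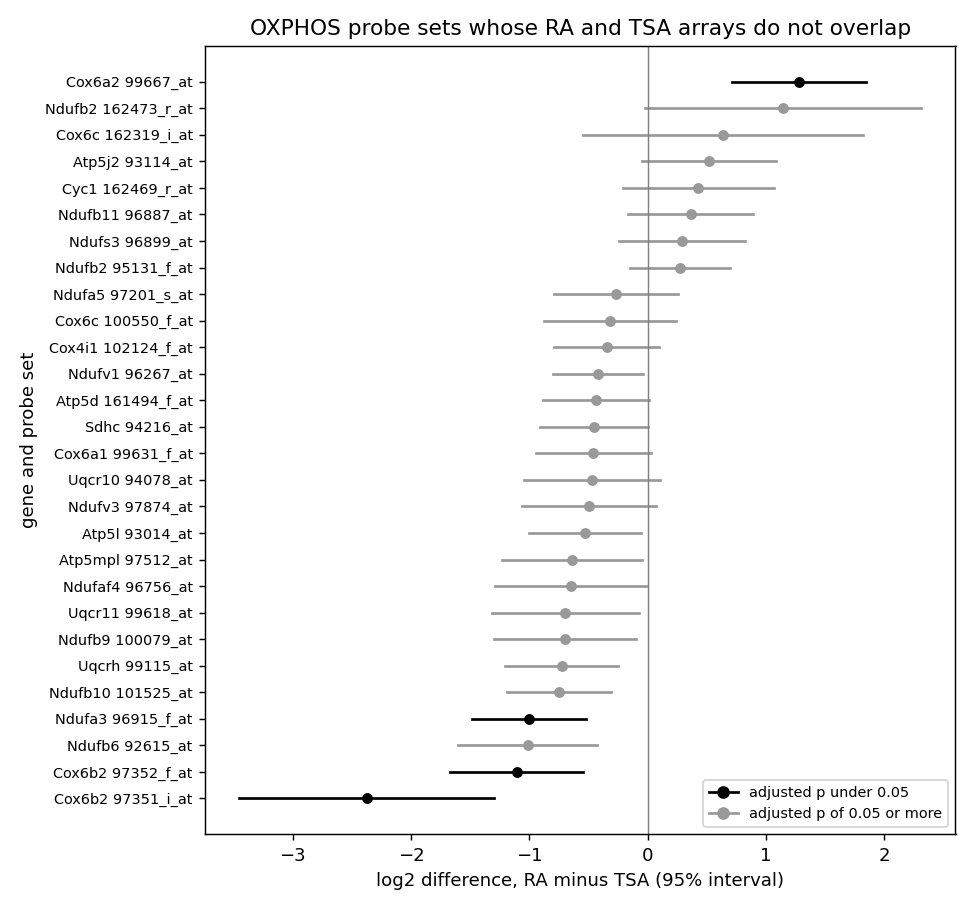
Log2 difference RA minus TSA with its 95% interval for the 28 member probe sets whose RA and TSA arrays do not overlap, 1 row each, in order of the difference; black rows passed an adjusted p of 0.05 and grey rows did not. The black rows are Cox6a2 at 1.28, Ndufa3 at -1.005 and Cox6b2 at -1.11 and -2.38.

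Genes with several probe sets showed how far a value depended on the probes. Of the 73 genes, 21 had several, 49 probe sets in all. In RA against vehicle the probe sets had the same sign in 15 of the 21 genes, in TSA in 14, and in RA against TSA in 9. The median range between a gene's probe sets was 0.30 in RA and in TSA and 0.51 in RA against TSA, on the log2 scale. The widest range in RA was in Cox6c, a small subunit of complex IV, with -0.38, 0.84 and 0.86. The widest in TSA was in Cox6b2, from -0.084 to 1.70. The 5 Atp5d probe sets, for the delta subunit of the synthase, ranged from -0.38 to 0.052 in RA. For Cox5a, 1 probe set had -0.082 and the other 0.77 in RA, with SEs of 0.398 and 0.598.

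Other genes of the mitochondrion and of energy metabolism were read beside the members, with log2 medians to set against -0.12 in RA and -0.17 in TSA over all probe sets. Of 76 probe sets for the mitochondrial ribosome, which translates the mitochondrially encoded subunits, 70 were below 0 in RA with a median of -0.34, and none passed; in TSA the median was -0.27 and 1, Mrpl12, fell. All 20 probe sets for protein import were below 0 in RA (median -0.47) and 17 in TSA (-0.33), and none passed in either. The 13 probe sets of assembly factors outside the rule had medians of -0.36 and -0.38, with none passing. The 23 of the citric acid cycle and pyruvate dehydrogenase had -0.23 and -0.22, with none passing. The medians of the ribosome, import and assembly lists lie below those of the members in both treatments, while those of carriers (-0.084 in RA and -0.18 in TSA) and of regulators (-0.20 and -0.16) lie above them. The 28 for glycolysis and lactate had medians of -0.38 and -0.52. For Ldhb, a lactate dehydrogenase subunit, 1 of 2 probe sets fell in RA (log2 change -1.20, limma adjusted p 0.0246). The same Ldhb probe set, Tpi1 and Pfkl fell in TSA.

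Among 22 probe sets of carriers of the inner and outer membranes, none passed in RA. In TSA a probe set of Ucp1, which lets protons bypass the synthase, rose (log2 change 2.24, limma adjusted p 0.0363), and the other Ucp1 probe set had 0.14. For Slc25a5, an ADP/ATP carrier, 1 of 3 probe sets, with the suffix f, fell (-0.98, limma adjusted p 0.0410). Of 5 antioxidant probe sets, with medians of -0.22 and -0.43, none passed. Among 29 probe sets of regulators, Myc, a growth factor-responsive transcription factor that also acts on mitochondrial genes, fell in RA (-2.39, adjusted p 0.00316), and Nrip1, a corepressor known to dampen oxidative genes, rose (1.81, adjusted p 0.0213). The 2 genes did not pass in TSA, at -0.54 and 0.36. Of the factors whose letters were searched in the promoters, Nrf1 and Sp1 had no probe set in this list and were not read. Gabpa and Yy1 did not pass: Gabpa probe sets had -0.088 and -0.36 in RA, and Yy1 probe sets -0.076 and -0.77. In RA against TSA, Nrip1, the glucose transporter Slc2a3 and 1 of 3 probe sets of the mitochondrial creatine kinase Ckmt2 were higher in RA. Myc and 1 of 2 Ucp1 probe sets were lower.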

How the data were processed

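Total RNA of 9 F9 samples (vehicle, RA and TSA, 3 each) was hybridised to Affymetrix arrays at a core facility, per the labels' protocols, which also name GeneSpring for the vehicle arrays. The deposited values are linear ratios per probe set. Their vehicle mean was 1 within 1.93e-07 in all 12488 probe sets, so the authors' ratios are relative to the vehicle mean; further scaling is not given in the sources used here, and brightness cannot be recovered. Groups came from the sample titles.

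The 66 control probe sets were left out, and log2(ratio + 0.05) was fitted over all 9 arrays with limma 3.58.1 in R 4.3.3 (6 residual degrees of freedom, no block), with Benjamini-Hochberg adjustment over 12422 probe sets and a threshold of 0.05. The number of arrays limits the precision. On simulated data for RA against vehicle (12422 probe sets, 200 changed, 10 sets), 16.2% of falls and 19.8% of rises of 1 on the log2 scale were recovered, and 62.2% and 63.6% of those of 2.

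All 101 members were found by Entrez ID in the RefSeq table of GRCm38.p6. Named members are those past the threshold, the highest and lowest of each complex, tissue forms, genes with several probe sets and the largest changes without overlap. Members and lists were chosen with earlier results of these data known. Alternatives covered the pseudocount, scaling, a filter on low ratios, variance models, the replicate number and each array left out.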

Additional observations from a re-analysis of the deposited data

How the results depend on the processing

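In RA against vehicle, 1 member, Cox6b2, passed without vehicle 3 and 0 without any other array; in TSA, 1, again Cox6b2, passed without vehicle 1 and 1 without vehicle 3, and otherwise 0; in RA against TSA, leaving out an array gave 0 to 5. Array weights, whose fit stopped before it converged, gave 21 in RA, 21 in TSA and 7 in RA against TSA, with 2196, 4494 and 943 of all probe sets passing. Centring gave 1, Ndufa3, in TSA, quantile normalisation 0 in RA against TSA, and genes as the unit 1. Whether the replicate numbers pair the arrays is not settled. In their deviations from the group means, same-numbered arrays of vehicle and RA correlated at 0.249, -0.0174 and 0.289, and different-numbered ones at -0.3 to 0.105. For vehicle and TSA the values were 0.0719, 0.0316 and 0.237, and -0.232 to 0.171. For RA and TSA they were 0.016, -0.0317 and 0.19, and -0.182 to 0.171. An effect shared by arrays of the same number is therefore possible. With the replicate block 2 members passed in RA against TSA and none elsewhere. The members' median was -0.0963 in RA and -0.0124 in TSA after centring, and -0.0394 in TSA after quantile normalisation. Of values that turned, none of which passed, genes as the unit gave -0.0554 for Ndufb2 and -0.0459 for Cyc1 in RA. Array weights gave 0.0022 for Cycs in RA, and 0.1355 for the r probe set of Ndufaf4 and -0.0724 for Uqcr11 in TSA. Without vehicle 3 and RA 3, TSA values were 0.4053 for that Ndufaf4 set, -0.2030 for Uqcr11 and -0.0690 for Cycs. The other Ndufaf4 set had 0.0759 after centring and 0.0136 after quantile normalisation in TSA. With 1 array left out, values in RA ran from -0.0994 to 0.4522 for Sdha, -0.0646 to 0.4651 for Cyc1 and -0.4690 to 0.1655 for Cycs; in TSA they ran from -0.3911 to 0.0724 and -1.5153 to 0.4053 for the Ndufaf4 sets, -0.2030 to 0.2513 for Uqcr11 and -0.0690 to 0.5654 for Cycs. The causes were not tested.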
